A study of Mus musculus with 6 samples.

Results

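Immediate early genes are the first genes a cell transcribes after a growth factor, a cytokine or a stress reaches it, and they need no new protein for that. The messages are short-lived and most of the set here code for transcription factors: EGR1, a zinc finger factor, FOS, JUN and JUNB, which pair as the AP-1 dimer, and ATF3, a related leucine zipper factor that often represses. ERK, the kinase at the end of the RAS, RAF and MEK chain, switches many of them on through the serum response factor SRF and its ETS partners, and in mouse embryonic stem cells FGF signalling is a main source of active ERK.

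The set was fixed by name as Egr1, Fos, Fosl1, Jun, Junb, Ier2, Ier3 and Atf3. Of these 8 genes, 7 were matched by symbol among the 19532 gene rows, and Fosl1 is not analysed here. All 7 passed the low-count filter and were among the 12098 genes tested.

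Single mouse embryonic stem cells were counted with SORT-seq, a plate-based method that reads the 3' end of each message and counts molecules by their identifiers (UMIs). Cells of 2 established lines, IB10 and R1, were taken in 3 conditions, with 1 library of 188 wells per line and condition, 6 in all. Primed_4d cells had 4 days in LIF plus 2 µM IWP2, an inhibitor of WNT secretion, with FGF2 at 12 ng/ml and Activin A at 20 ng/ml. Rosette_LIM cells had LIF, 2 µM IWP2 and 0.1 µM PD325901, an inhibitor of MEK, for 5 passages in IB10 and 6 in R1. LIF_2i cells had LIF, 3 µM CHIR99021, an inhibitor of GSK3, and 0.1 µM PD325901. The MEK inhibitor was thus present in rosette_LIM and LIF_2i and absent from primed_4d, while LIF was present in all. FGF2 and Activin A were given in primed_4d alone, CHIR99021 in LIF_2i alone, and IWP2 in primed_4d and rosette_LIM. The parts of agents that differ together between conditions, the MEK inhibitor among them, cannot be told apart. Cells were at passage 28 (IB10) and 24 (R1) in primed_4d and in LIF_2i, and at passage 33 (IB10) and 28 (R1) in rosette_LIM. All 6 libraries went through trypsin and FACS before lysis, no library stands for more than 1 culture of its line in the labels, and the sources used here do not say which of them were on one plate.

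Library totals ran from 4675388 to 7806882 UMIs. The R1 primed_4d library stood apart in depth: its median well held 11285 UMIs, and 84 of its 188 wells held under 6000, against medians of 27069 to 41501 and 4 to 38 such wells in the other 5 libraries. R1 primed_4d also had 30 wells over 5 times its median, and R1 LIF_2i had 2. The largest well of R1 LIF_2i held 590866 UMIs, where no well of another library held more than 93807. Shares of wells are therefore given after each well was thinned to 6000 UMIs. Genes of primed pluripotency (6 of 6 higher in primed_4d than in LIF_2i) and most of naive pluripotency (9 of 10 lower, 1 higher) followed the labels. By edgeR, 37.9% of all genes were called in that comparison. In rosette_LIM against LIF_2i, 2 of the 6 primed genes were higher and 1 was lower. Of the 10 naive genes 1 was lower there, where 5.52% of all genes were called. Of 7 fibroblast markers, Col3a1 and Lum were at 0 in every library, while Thy1 and Dcn were higher in primed_4d, as given further below. Mitochondrially encoded messages took 7.72% to 8.91% of the UMIs in primed_4d, 9.38% to 11.1% in rosette_LIM and 9.45% to 10.8% in LIF_2i.

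Ier2, which codes for a small nuclear protein, supplied most of the signal of the set, and the other 6 genes were rare messages. Ier2 held 66.5% (IB10) and 68.1% (R1) of the set's UMIs in primed_4d, 88.5% and 82.0% in rosette_LIM, and 87.3% and 90.4% in LIF_2i. Without Ier2 the set summed to 61.3 CPM (CPM scales a gene's UMIs to the library's total) in IB10 and 77.7 CPM in R1 in primed_4d, to 15.2 and 33.3 CPM in rosette_LIM, and to 18.6 and 15.7 CPM in LIF_2i. Both primed_4d libraries thus lay above the other 4, while the 4 libraries of rosette_LIM and LIF_2i overlapped between conditions.

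**Figure D1:**
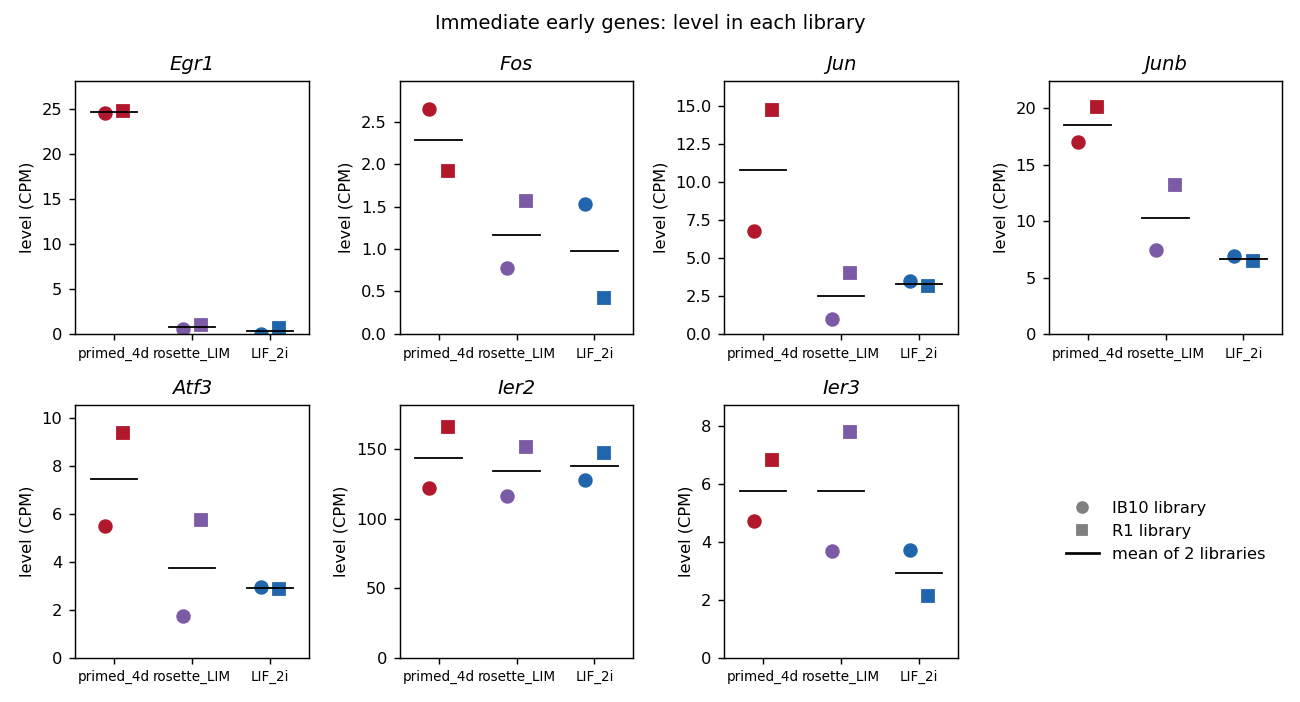
Level of each immediate early gene in every library in CPM (linear axes from 0, a scale of its own for each gene), with IB10 as circles, R1 as squares and the mean of 2 libraries as a bar. Egr1 lies near 25 CPM in both primed_4d libraries and at 1.04 CPM or less in the other 4, while Ier2 overlaps between all conditions.

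In primed_4d cells, 4 of the 7 genes were higher than in LIF_2i cells, and Egr1 moved by far more than the rest. Egr1, Jun, Junb and Atf3 passed the test, and Fos, Ier3 and Ier2 did not. All called differences were upward. In 6 of the 7, all but Ier2, both primed_4d libraries lay above both LIF_2i libraries, where 33.6% of all genes tested did so. Across all genes tested, 37.9% were called in this comparison and 18.3% were called higher. The median log2 difference was 1.29 over the set and -0.01 over all genes tested. The 7 genes were picked with earlier results of these data known, so their share is a description. Groups of 2 libraries allow an exact permutation p no lower than 0.333, so the tests are those of edgeR over all genes. With library totals left unscaled, calls over all genes split into 861 higher and 6175 lower, against 2211 and 2369 after scaling.

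Egr1 (chr18:34859823-34864984, plus strand, GRCm38) showed the largest difference of the set. It had 130 UMIs in the IB10 primed_4d library and 116 in the R1 one, against 3 and 6 in rosette_LIM, and 0 and 5 in LIF_2i. As levels these were 24.6 and 24.8 CPM in primed_4d, 0.585 and 1.04 CPM in rosette_LIM, and 0 and 0.714 CPM in LIF_2i. Both primed_4d libraries lay far above the other 4, and the rosette_LIM and LIF_2i libraries overlapped. The mean was 24.7 ± 0.124 CPM in primed_4d, 0.813 ± 0.323 CPM in rosette_LIM and 0.357 ± 0.505 CPM in LIF_2i (SD, n = 2 each). edgeR gave a log2 fold change of 6.11 ± 0.50 (SE; adjusted p = 3.43e-07) for primed_4d against LIF_2i. That fitted value leans on a group with 5 UMIs in all. It ran from 5.11 (without the IB10 LIF_2i library) to 10.10 (without the R1 LIF_2i library) with 1 library left out, and it was 2.47 with limma on log2(CPM + 5), a scale that understates low genes. It was called each time. Within R1 the ratio was 34.1 (exact 95% interval 14.2 to 107, counting error only), and within IB10, where the LIF_2i library had 0 UMIs, primed_4d was at least 63.8-fold higher against a floor of 3 counts. The exact 95% lower limit of that IB10 ratio was 51.2.

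The AP-1 genes Jun and Junb rose in primed_4d by a smaller step, and Fos stayed at a handful of molecules per library. Jun (chr4:95049034-95052222, minus strand) had 6.81 CPM in IB10 and 14.7 CPM in R1 in primed_4d, against 0.975 and 3.99 CPM in rosette_LIM and 3.46 and 3.14 CPM in LIF_2i. The primed_4d libraries did not overlap with the others, but the lines differed, with R1 the higher in primed_4d and in rosette_LIM. edgeR gave Jun a log2 fold change of 1.60 ± 0.40 (adjusted p = 0.00579) over LIF_2i. That call was lost with DESeq2, without the R1 primed_4d library and without the R1 LIF_2i library, where the log2 fold change was 0.83 and the adjusted p 0.285, in a range of 1.65e-05 to 0.285 over the alternatives. Jun overlaps the antisense gene Junos by 689 bases, and the sources used here do not say whether reads were counted by strand.

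Junb (chr8:84974484-84978718, minus strand), an AP-1 partner that is also a known target of LIF and STAT3, had 17.0 CPM in IB10 and 20.1 CPM in R1 in primed_4d. It had 7.41 and 13.2 CPM in rosette_LIM, and 6.91 and 6.42 CPM in LIF_2i. The 3 conditions did not overlap and lay in the order primed_4d, rosette_LIM, LIF_2i. edgeR gave Junb a log2 fold change of 1.46 ± 0.26 (adjusted p = 0.000472) for primed_4d over LIF_2i. With equal weight per well that call was lost (1.05, adjusted p = 0.0716, the highest of the alternatives run). The 3' ends of Junb and Prdx2, a peroxidase gene on the other strand, overlap by 351 bases. Prdx2 had 140 and 236 CPM in primed_4d, 205 and 217 CPM in rosette_LIM and 149 and 220 CPM in LIF_2i. For primed_4d over LIF_2i, edgeR gave it 0.02 on the log2 scale (adjusted p = 0.933). Its level was far above that of Junb, and the part of Prdx2 reads in the Junb counts was not tested. Whether reads were counted by strand is not said for this pair either.

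Fos (chr12:85473890-85477273, plus strand), the AP-1 subunit that pairs with JUN proteins, had 14 UMIs in IB10 and 9 in R1 in primed_4d, 4 and 9 in rosette_LIM, and 12 and 3 in LIF_2i. These were 2.65 and 1.92 CPM in primed_4d, 0.780 and 1.56 CPM in rosette_LIM and 1.54 and 0.428 CPM in LIF_2i. The primed_4d libraries were the highest, by a margin of a few molecules. edgeR's log2 fold change over LIF_2i was 1.20 ± 0.64 (95% interval -0.17 to 2.57, adjusted p = 0.157), so a difference for Fos was not detectable at this depth.

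The proximal promoters of these 3 AP-1 genes are shown because the genes all code for AP-1 subunits. They differ in the motif letters ahead of their start sites. The windows are the 250 bases before the RefSeq start, GRCm38.p6, each written 5' to 3' on the gene's strand. Capitals mark matches to the motif TGANNTCA, which ATF and AP-1-like dimers can bind, and to the CRE half-site TGACG. Capitals also mark the ETS core CGGAAG and the TATA box TATAAA, each in either orientation, and no match overlapped with another.

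Jun, chr4:95052223-95052472 (minus strand): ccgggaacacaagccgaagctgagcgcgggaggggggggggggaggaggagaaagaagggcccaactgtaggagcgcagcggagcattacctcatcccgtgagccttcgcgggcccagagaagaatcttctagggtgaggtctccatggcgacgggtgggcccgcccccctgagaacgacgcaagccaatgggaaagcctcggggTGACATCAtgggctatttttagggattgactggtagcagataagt

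Junb, chr8:84978749-84978998 (minus strand): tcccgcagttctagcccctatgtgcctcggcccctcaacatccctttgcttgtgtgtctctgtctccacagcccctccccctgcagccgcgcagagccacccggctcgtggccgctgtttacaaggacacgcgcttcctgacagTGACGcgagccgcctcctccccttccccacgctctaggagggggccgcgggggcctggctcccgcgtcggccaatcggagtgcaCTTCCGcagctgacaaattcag

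Fos, chr12:85473640-85473889 (plus strand): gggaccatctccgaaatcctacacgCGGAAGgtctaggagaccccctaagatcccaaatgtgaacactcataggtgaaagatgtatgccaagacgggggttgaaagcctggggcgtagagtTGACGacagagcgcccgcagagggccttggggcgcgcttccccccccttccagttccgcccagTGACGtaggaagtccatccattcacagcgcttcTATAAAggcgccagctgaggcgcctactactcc

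In the Jun window the 8-base match was TGACATCA, 45 to 38 bases before the start. The Junb window held TGACG at 106 to 102 bases and the ETS core at 22 to 17 bases before the start. The Fos window held TGACG at 129 to 125 and at 66 to 62 bases, the ETS core at 225 to 220 bases and a TATA box at 33 to 28 bases before the start. Both strands were searched. Of 32851 promoter windows of the same length, 11.93% held TGANNTCA, 17.77% TGACG, 13.59% CGGAAG and 12.37% TATAAA, so such matches are common. A search for the AP-1 site TGANTCA (6.75% of windows) and for the CArG box bound by SRF (1.47%) found no match in the 5 windows available, those of Fos, Jun, Junb, Ier3 and Atf3. That says only that those letters are not in these windows.

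Atf3 (chr1:191170296-191218039, minus strand), a stress-induced partner and antagonist of AP-1 and CREB family factors, was the fourth gene called. It had 5.49 CPM in IB10 and 9.39 CPM in R1 in primed_4d, 1.75 and 5.73 CPM in rosette_LIM, and 2.94 and 2.86 CPM in LIF_2i. The primed_4d libraries lay above those of LIF_2i but overlapped with rosette_LIM, where R1 was above IB10 of primed_4d. edgeR gave a log2 fold change of 1.29 ± 0.41 (adjusted p = 0.0223) over LIF_2i. The call was lost with DESeq2 (adjusted p = 0.168, in a range of 0.00225 to 0.408 over the alternatives), with library totals left unscaled and without the cell line block. It was also lost without the IB10 primed_4d, the R1 primed_4d or the R1 LIF_2i library, and in that last case the log2 fold change was 0.70.

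Ier3 (chr17:35821684-35822923, plus strand), which codes for a stress and survival protein that ERK phosphorylates, had 4.73 CPM in IB10 and 6.83 CPM in R1 in primed_4d. It had 3.70 and 7.82 CPM in rosette_LIM and 3.71 and 2.14 CPM in LIF_2i. Primed_4d lay above LIF_2i in both lines, and rosette_LIM overlapped with both. The call for Ier3 was gained without the IB10 rosette_LIM, the R1 rosette_LIM or the IB10 LIF_2i library. edgeR gave 0.92 ± 0.44 on the log2 scale over LIF_2i (95% interval -0.01 to 1.86, adjusted p = 0.111). Flot1, a membrane scaffold gene that starts 306 bases past the end of Ier3, had a log2 fold change of -0.07.

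Ier2 (chr8:84661331-84662852, minus strand) had 122 CPM in IB10 and 166 CPM in R1 in primed_4d, 117 and 152 CPM in rosette_LIM, and 128 and 148 CPM in LIF_2i. The conditions overlapped, and within each of them R1 was above IB10. The mean was 144 ± 31.3 CPM in primed_4d, 134 ± 25.0 CPM in rosette_LIM and 138 ± 14.1 CPM in LIF_2i (SD, n = 2 each). edgeR gave a log2 fold change of 0.05 ± 0.12 for primed_4d over LIF_2i (95% interval -0.19 to 0.30, adjusted p = 0.752). With library totals left unscaled it was called lower, at -0.52, where the median of all genes moved to -0.58. With 644 to 1034 UMIs a library, Ier2 was also the best-measured gene of the set. Its highest count in 1 well, not thinned, was 102 UMIs, in R1 LIF_2i, the library whose largest well held 590866 UMIs.

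**Figure D2:**
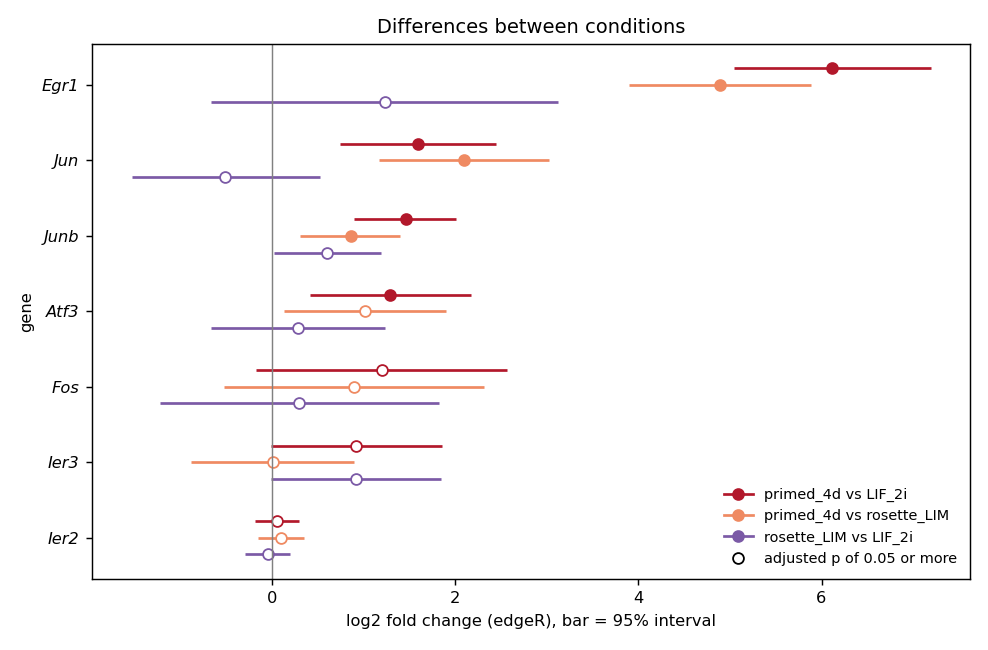
Log2 fold changes from edgeR for the 7 genes in the 3 comparisons of conditions, with 95% intervals as bars and filled points where the adjusted p was under 0.05. Egr1, Jun and Junb have filled points in both comparisons with primed_4d, Atf3 against LIF_2i alone, and no gene has one for rosette_LIM against LIF_2i.

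Rosette_LIM cells were not called different from LIF_2i cells at any of the 7 genes. edgeR called 0 of 7, where it called 5.52% of all genes, and 1 gene, Junb, had an unadjusted p under 0.05. DESeq2 and limma called 0 as well. Junb had a log2 fold change of 0.60 ± 0.27 (adjusted p = 0.242 by edgeR), and it was the 1 gene of the set whose rosette_LIM libraries lay wholly above those of LIF_2i, where 24.9% of all genes did so. Egr1 had 9 UMIs over both rosette_LIM libraries and 5 over both LIF_2i libraries, with a log2 fold change of 1.23 and a 95% interval of -0.67 to 3.12. For Ier2 the interval was narrow, -0.29 to 0.20. For Fos (-1.22 to 1.82) and Jun (-1.53 to 0.52) the depth left room for differences of 2-fold either way or in one direction. The median over the set was 0.30, and 0.00 over all genes.

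Against rosette_LIM, primed_4d cells had higher Egr1, Jun and Junb, 3 of 7 genes, where 36.1% of all genes were called and 17.1% were called higher. Both primed_4d libraries lay above both rosette_LIM libraries in 4 of the 7 (Egr1, Fos, Jun and Junb), where 32.4% of all genes did so. This comparison and that with LIF_2i share the primed_4d libraries. edgeR gave log2 fold changes of 4.89 ± 0.46 for Egr1 (adjusted p = 1.58e-06), 2.10 ± 0.43 for Jun (adjusted p = 0.00162) and 0.86 ± 0.26 for Junb (adjusted p = 0.0169). Within IB10, the Egr1 ratio was 42.2 (exact 95% interval 14.1 to 207), and within R1 it was 24.1 (10.8 to 67.1). The Junb call was lost with DESeq2, with library totals left unscaled, with equal weight per well, and without any of 3 libraries (IB10 primed_4d, R1 primed_4d, IB10 rosette_LIM). Atf3 stood just short of the threshold at 1.02 ± 0.41 (adjusted p = 0.0689) and passed it without the R1 rosette_LIM library (1.82), with limma, with no low-count filter and in wells of at least 6000 UMIs. Fos stood at 0.90 ± 0.66 (adjusted p = 0.316 by edgeR), and Ier2 and Ier3 at 0.10 ± 0.12 and 0.01 ± 0.42.

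Between the lines, edgeR called 0 of the 7 genes, where it called 0.752% of all genes. DESeq2 and limma called 0 too, and 3 genes had an unadjusted p under 0.05 in edgeR. Ier2 was lower in IB10 than in R1 in each condition, with a log2 fold change of -0.34 ± 0.09 (adjusted p = 0.133 by edgeR). Jun, at -0.85 ± 0.35 (adjusted p = 0.37), and Atf3, at -0.76 ± 0.35 (adjusted p = 0.457), were the others. Jund, an AP-1 gene outside the set, was called lower in IB10 (-0.55 ± 0.09, adjusted p = 0.0141 by edgeR).

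Within the primed_4d libraries, Egr1 came from a minority of wells. In IB10, 58 of 188 wells held at least 1 Egr1 UMI: 34 held 1, 18 held 2 to 4, and 6 held 5 or more, with a highest count of 16. In R1, 32 wells held at least 1: 10 held 1, 17 held 2 to 4, and 5 held 5 or more, with a highest count of 20. The 10 richest wells held 49.2% of the Egr1 UMIs in IB10 and 66.4% in R1. No well of rosette_LIM or LIF_2i held more than 1.

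Egr1 was found more often in deeper wells. Wells with an Egr1 UMI had a median of 31658 UMIs in IB10 primed_4d, against 22157 in wells without, and in R1 48701 against 2562. Thinned to 6000 UMIs a well, Egr1 was found in 11.2% of IB10 primed_4d wells (19 of 169, exact 95% interval 6.91% to 17.0%) and in 9.62% of R1 primed_4d wells (10 of 104, 4.71% to 17.0%). It was found in 0 of 150 and 0 of 179 rosette_LIM wells of IB10 and R1, and in 0 of 184 and 0 of 160 LIF_2i wells. Taken as 3 counts of the total, a count of 0 allows shares of up to 2.00% and 1.68% in rosette_LIM and 1.63% and 1.88% in LIF_2i. The exact 95% intervals reach 2.43% and 2.04% in rosette_LIM and 1.99% and 2.28% in LIF_2i. These intervals and limits cover counting error only. Before thinning the shares were 30.9% and 17.0% in primed_4d, 1.60% and 3.19% in rosette_LIM, and 0% and 2.66% in LIF_2i.

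At even depth, the variance of Egr1 over primed_4d wells was above its mean, on few molecules and 1 random thinning per depth. At 6000 UMIs a well the ratio of variance to mean was 1.37 in IB10 (24 UMIs of Egr1) and 2.18 in R1 (18 UMIs), where the median gene had 0.999 and 0.990, and 6.02% and 1.18% of genes had a higher ratio. At 3000 UMIs it was 1.40 in IB10 (9 UMIs) and 1.32 in R1 (10 UMIs), with 3.06% and 7.25% of genes higher. At 10000 UMIs it was 1.33 in IB10 (38 UMIs) and 1.45 in R1 (11 UMIs), with 11.3% and 8.07% of genes higher. The Egr1 ratio was thus above the median gene at each of the 3 depths, but its size and rank moved between them.

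The Junb ratio did not hold over depths. It was 1.29 in IB10 and 1.67 in R1 at 6000 UMIs, above the median gene. At 3000 UMIs it was 0.949 and 0.952, under the medians of 0.989 and 0.983. At 10000 UMIs it was 1.13 in IB10, above the median of 1.04, and 0.949 in R1, under the median of 1.00.

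**Figure D3:**
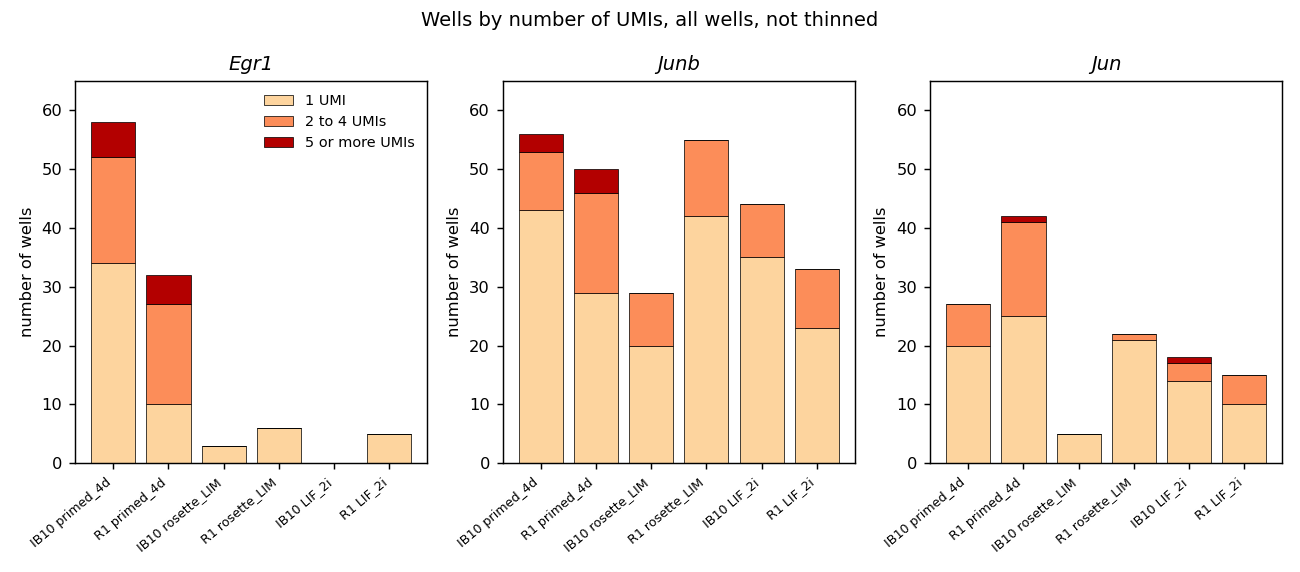
Number of wells with 1, 2 to 4, and 5 or more UMIs of Egr1, Junb and Jun in each library (of 188 wells, not thinned, stacked bars from 0). Wells with 2 or more Egr1 UMIs occur in the primed_4d libraries alone, while wells with Junb occur in every library and those with 5 or more in primed_4d.

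Apart from Ier2, the other genes of the set were found in few wells of every library. Thinned, Junb was found in 10.1% and 10.6% of IB10 and R1 wells in primed_4d, 6.67% and 7.26% in rosette_LIM and 5.98% and 5.63% in LIF_2i. Jun was found in 5.33% and 11.5% in primed_4d, 0% and 1.68% in rosette_LIM (0 of 150 allows up to 2.00% as 3 counts of the total, and 2.43% as the exact 95% limit) and 3.80% and 1.88% in LIF_2i. Ier2 was found in 46.2% and 62.5% of wells in primed_4d, 48.0% and 61.5% in rosette_LIM and 54.3% and 64.4% in LIF_2i. At this depth the R1 share of Ier2 was above the IB10 share in each condition, as its level was. That order of shares did not hold at every depth. At 10000 UMIs a well, rosette_LIM had 72.8% in IB10 and 72.1% in R1. Without thinning, IB10 was above R1 in primed_4d (82.4% against 54.3%) and in LIF_2i (94.7% against 84.0%). Fos was found in 0.543% to 1.18% of wells of a library, Atf3 in 0.667% to 4.81% and Ier3 in 0.667% to 6.70%.

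Pairs of genes of the set showed weak correlations from well to well, but counts this sparse hold r near 0 even for genes that vary together. At 6000 UMIs a well, Egr1 averaged 0.142 UMIs in IB10 primed_4d and 0.173 in R1 primed_4d. Over the 14 pairs of genes within a library that were each found in at least 10 wells at 6000 UMIs, Pearson's r across wells ran from -0.055 to 0.126 with a median of 0.024. Over the 15 such pairs at 10000 UMIs it ran from -0.196 to 0.26 with a median of 0.029. The highest, Egr1 with Junb in IB10 primed_4d, changed with depth: r was 0.118 at 3000 UMIs, 0.075 at 6000 and 0.26 at 10000, where 9 of 28 wells with Egr1 also held Junb (32.1%, against 9.32% of wells without Egr1). In R1 primed_4d r for the pair was -0.068, 0.014 and 0.228, and at 10000 UMIs 5 of 8 wells with Egr1 held Junb (62.5%, against 17.8% without). Wells of 1 library share its depth and handling, and these few wells are given as a description. The genes most like the summed set across wells, by mean r over the 6 libraries, included Rpl13 (0.134), Gatad2a, Vdac3, Git1, Cct7, Esrrb and Tcf25 (0.103), among 3558 genes with a median of 0.003. Ier2 makes up most of that sum, and in counts this sparse values of that size are not a result.

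Immediate early genes outside the set did not move as one in primed_4d cells. Of 40 listed, 32 passed the low-count filter, and of these 14 were higher and 10 were lower than in LIF_2i by edgeR. Over all genes, 37.9% were called and 18.3% were called higher. The median log2 difference was 0.35, against -0.01 for all genes. Bhlhe40, a repressor of the basic helix-loop-helix class, and Cebpd, a CCAAT-binding factor, were higher, and Gadd45b, a stress sensor of the GADD45 family, was lower. Bhlhe40 averaged 20.4 ± 4.64 CPM in primed_4d, 3.45 ± 1.19 CPM in rosette_LIM and 3.61 ± 0.947 CPM in LIF_2i (SD, n = 2 each), with a log2 fold change of 2.48 over LIF_2i (adjusted p = 1.93e-05 by edgeR). Gadd45b averaged 1.52 ± 0.271 CPM in primed_4d, 26.8 ± 5.61 CPM in rosette_LIM and 27.5 ± 12.6 CPM in LIF_2i, a log2 fold change of -4.12 (adjusted p = 1.03e-07 by edgeR). Both primed_4d libraries were thus lowest for Gadd45b, where they were highest for Egr1.

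Some textbook companions of Egr1 also split; these were picked after their values were seen. Myc (1.49), the mRNA decay factor Zfp36 (1.94) and the ERK phosphatase Dusp1 (0.87) were called higher in primed_4d than in LIF_2i on the log2 scale by edgeR. The nuclear receptor Nr4a1 (-1.22), the synaptic plasticity gene Arc (-0.86) and the NF-kB inhibitor Nfkbia (-1.29) were called lower. Nr4a1 averaged 7.01 ± 2.16 CPM in primed_4d, 23.7 ± 0.897 CPM in rosette_LIM and 16.2 ± 2.49 CPM in LIF_2i (SD, n = 2 each).

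**Figure D4:**
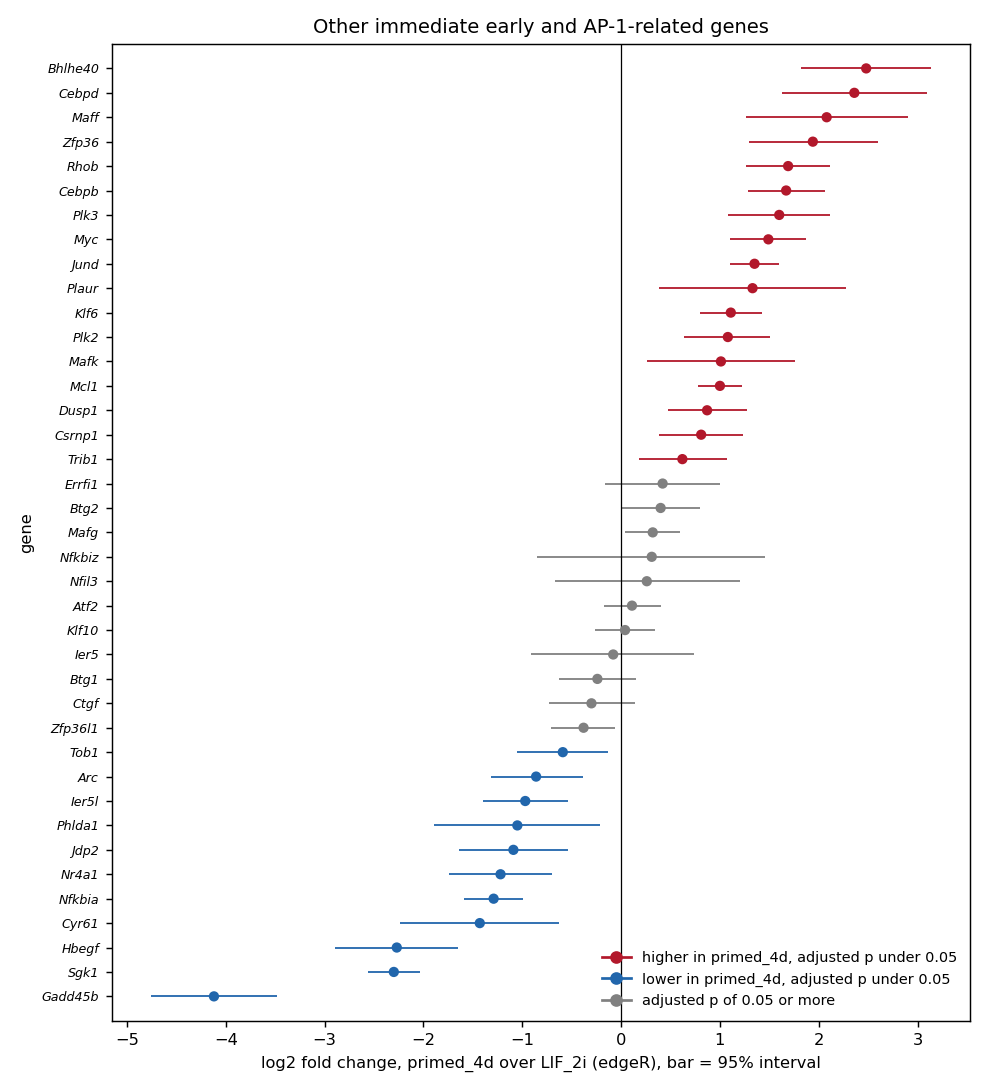
Log2 fold change of primed_4d over LIF_2i from edgeR for the tested immediate early and AP-1-related genes outside the set, with 95% intervals as bars. Genes are sorted by value, from Bhlhe40 at 2.48 to Gadd45b at -4.12, and calls lie on both sides of 0.

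Against rosette_LIM, 13 of the 32 were higher in primed_4d and 8 were lower, where 36.1% of all genes were called. Bhlhe40 (2.57) and Gadd45b (-4.13) were again among the ends, and Hbegf, an EGF-family ligand, was at -2.19. In rosette_LIM against LIF_2i, 5 were higher and 1 was lower, where 5.52% of all genes were called. Plk3, a stress-responsive polo-like kinase, averaged 25.9 ± 3.78 CPM in primed_4d, 23.4 ± 7.75 CPM in rosette_LIM and 8.56 ± 0.198 CPM in LIF_2i (SD, n = 2 each), so that its rosette_LIM level was near that of primed_4d. The small GTPase gene Rhob was higher in rosette_LIM than in LIF_2i as well (1.11, adjusted p = 0.00476 by edgeR), and the matrix protein gene Ctgf was lower (-0.95, adjusted p = 0.0181).

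Of 13 other AP-1 and related leucine zipper genes, 7 passed the low-count filter. Of those, 3 were higher in primed_4d than in LIF_2i and 1 was lower by edgeR, where 37.9% of all genes were called. Jund, the AP-1 subunit that is expressed without a stimulus in many cells, averaged 239 ± 76.7 CPM in primed_4d, 136 ± 37.4 CPM in rosette_LIM and 92.2 ± 18.6 CPM in LIF_2i (SD, n = 2 each). It was called in all 3 comparisons of conditions, including rosette_LIM over LIF_2i (0.54 ± 0.12, adjusted p = 0.0131 by edgeR). The small MAF gene Maff rose too (2.08), and Jdp2, a JUN dimerization repressor, fell (-1.09). In the comparison with rosette_LIM, 4 of the 7 were higher in primed_4d and 1 was lower, where 36.1% of all genes were called. Counts over the 6 libraries were too low to test Fosl2, with 7 UMIs in each primed_4d library, 1 and 2 in rosette_LIM and 0 in LIF_2i, and to test Fosb and Egr2, with 4 and 3 UMIs in all.

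Most of the genes that ERK switches on as its own brakes or ETS effectors rose in primed_4d cells. Of 11 tested, 7 were higher and 2 were lower than in LIF_2i by edgeR, with a median log2 difference of 1.34. Over all genes, 37.9% were called in this comparison and 18.3% were called higher. The ERK phosphatase genes Dusp4 (3.99 ± 0.32, adjusted p = 2.48e-07) and Dusp6 (2.28 ± 0.22, adjusted p = 1.87e-06) led. Dusp4 averaged 23.1 ± 4.81 CPM in primed_4d, 1.01 ± 0.0477 CPM in rosette_LIM and 1.43 ± 0.205 CPM in LIF_2i (SD, n = 2 each), so that, like Egr1, it was high in primed_4d alone. The ETS factor genes Etv4 (-0.56) and Etv5 (-0.67) fell. In rosette_LIM against LIF_2i, 3 were lower (Etv4, Spry2 and Spred1) and 0 were higher, where 5.52% of all genes were called. In primed_4d against rosette_LIM, 8 were higher and 1 was lower, where 36.1% of all genes were called.

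Genes that act upstream were called in both directions, 3 of 9 SRF, ETS and CREB regulators and 5 of 17 RAS and MAPK chain genes, where 37.9% of all genes were called. Of the regulators, Creb1 was higher in primed_4d than in LIF_2i (0.52), and Ets2 (-1.71) and Elk3 (-1.45) were lower by edgeR. Srf itself was at 0.01 ± 0.14 on the log2 scale. Of the RAS and MAPK chain genes, 4 were higher, among them Braf (1.32) and Mapk3, which codes for ERK1 (0.95), and Grb2 was lower (-0.82). Nab2, which codes for a corepressor bound by EGR1, was lower in primed_4d (-1.17, adjusted p = 0.0122 by edgeR), while Nab1 was at 0.03.

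Stress genes were read beside these results because dissociation and sorting can raise immediate early genes. Of 11 heat shock genes, 2 were higher and 4 were lower in primed_4d than in LIF_2i by edgeR, where 37.9% of all genes were called. Hspa1a, an inducible HSP70, was at 2.11 ± 0.68, and Hspb1 and Dnajb1 were at -1.98 and -0.44. The list summed to 15152 to 15937 CPM in primed_4d, 17305 to 17623 CPM in rosette_LIM and 17255 to 18093 CPM in LIF_2i. Of 9 genes of the ATF4 stress response, to which Atf3 is linked, 7 were higher and 1 was lower in the same comparison. Chac1 was at 2.82 and Ddit4 at 1.95. The part of stress in the levels of Egr1, Jun, Junb and Atf3 was not tested.

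Markers of other cells were at low levels and differed in direction. The 7 fibroblast genes summed to 12.0 to 13.2 CPM in primed_4d, 3.31 to 8.86 CPM in rosette_LIM and 6.14 to 7.42 CPM in LIF_2i. Most of it was Thy1, which was called higher in primed_4d than in LIF_2i (log2 fold change 1.04, adjusted p = 0.0454 by edgeR). Thy1 was also called higher than in rosette_LIM (1.21, adjusted p = 0.032 by edgeR). The other gene tested, Col1a1, was not called. Dcn, too low to test, had 10 and 4 UMIs in primed_4d (IB10 and R1), 0 in rosette_LIM and 1 in each LIF_2i library. The 6 primitive endoderm genes summed to 7.38 to 14.5 CPM in primed_4d, 5.65 to 8.51 CPM in rosette_LIM and 5.63 to 6.85 CPM in LIF_2i, so primed_4d and rosette_LIM overlapped. The 6 mesendoderm genes summed to 4.92 to 9.39 CPM in primed_4d, 13.9 to 14.2 CPM in rosette_LIM and 22.1 to 29.1 CPM in LIF_2i, and 3 of 3 tested were lower in primed_4d than in LIF_2i by edgeR. The 6 trophectoderm genes summed to 23.3 to 33.1 CPM in primed_4d, at most 25.4 CPM in rosette_LIM and 33.3 to 33.9 CPM in LIF_2i, with 1 higher and 2 lower of 4 tested. Over all genes, 37.9% were called in primed_4d against LIF_2i. The part of such cells in the results was not tested.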

How the data were processed

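Each deposited value is an expected count of 1 gene in 1 well, which the authors derived from UMIs; BWA and the mm10/GRCm38 build are named per the submitters' processing notes. All 1297 distinct values equal, within 0.0051, the molecules expected from a whole number of 4096 possible UMIs, so the values are collision-corrected UMI counts without depth scaling. ERCC rows (1.75% of counts) were left out.

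Wells are not replicates, so values were summed over the 188 wells of a library and rounded. edgeR 4.0.16 (R 4.3.3; TMM; filterByExpr, minimum count 10; quasi-likelihood test, two-sided) fitted condition and cell line over 6 libraries, with Benjamini-Hochberg adjustment over 12098 genes and a threshold of 0.05 (biological coefficient of variation 0.103). CPM are scaled with TMM factors. Nothing says that cultures within a line were repeated, so the p-values rest on the spread between the libraries at hand. Libraries of the same cell line share a replicate number in the labels, hence the cell line block; IB10 minus R1 deviations correlated by 0.09 to 0.205 between conditions.

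For shares of wells, each well of at least 6000 UMIs was thinned to 6000; intervals are Clopper-Pearson (95%), and the share that a count of 0 allows is 3 counts of the total. Alternatives used DESeq2 1.42.0, limma 3.58.1 on log2(CPM + 5), other scalings, filters and wells, and each library left out. The edgeR step was tested on simulated data. Members and lists were chosen with earlier results of these data known. All 7 genes of the set are named in every comparison; from each other list, the 3 called genes with the largest changes could be named, and others are said to be picked later; 2 genes so named are not reported here. Gene positions are GENCODE M21; promoters are from RefSeq GRCm38.p6, which gave 5 of the 8 genes.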

Additional observations from a re-analysis of the deposited data

Results flagged for a closer look

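In 6 cases the libraries of IB10 and R1 moved in opposite directions under the same comparison. With 1 library per line and condition the differences were not tested. Fos, Jun, Ier3 and Atf3 were all measured on few UMIs.

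For rosette_LIM over LIF_2i, the log2 ratio of Fos was -0.99 in IB10 and 1.82 in R1, a difference of -2.81 between the lines, on 4 to 12 UMIs in IB10 and 3 to 9 in R1. For Jun it was -1.84 in IB10 and 0.30 in R1, a difference of -2.14. For Ier3 it was -0.01 in IB10 and 1.82 in R1, a difference of -1.83. For Atf3 it was -0.76 in IB10 and 0.96 in R1, a difference of -1.72. In each of these 4 genes the R1 rosette_LIM library lay above the IB10 one.

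For primed_4d over LIF_2i, Ier2 was at -0.07 in IB10 and 0.14 in R1, a difference of -0.21. For primed_4d over rosette_LIM, Ier3 was at 0.36 in IB10 and -0.17 in R1, a difference of 0.53.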

How the results depend on the processing

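Egr1 was called higher in primed_4d than in LIF_2i and than in rosette_LIM under every alternative run. The number of genes of the set called in primed_4d against LIF_2i (4) was 2 with DESeq2 (Egr1 and Junb), 1 with equal weight per well (Egr1), and 2 to 5 with 1 library left out; against rosette_LIM (3) it was 1 with equal weight per well and 2 to 4 with 1 library left out. With equal weight per well, Fos, Jun, Ier3 and Atf3 had too few counts to be tested. The number stayed at 0 for rosette_LIM against LIF_2i and for IB10 against R1 under the alternatives run. Of 520 recomputed log2 fold changes, 472 kept direction and side of the threshold, 16 lost a call, 7 gained one and 25 changed sign; causes were not tested. Over all genes, calls in primed_4d against LIF_2i (4580) were 2656 with DESeq2 and 1755 with equal weight per well; in primed_4d against rosette_LIM (4369), 2607 and 1752; in rosette_LIM against LIF_2i (668), 271 and 154; and in IB10 against R1 (91), 47 and 14. With 1 library left out these counts ran from 2319 to 5454, 3060 to 3900, 64 to 997 and 0 to 379.

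Without the replicate block of cell line, 3 genes of the set were called in primed_4d against LIF_2i and 3 against rosette_LIM; Atf3 lost its call, genes called in rosette_LIM against LIF_2i came to 281, and Ier3 in primed_4d against rosette_LIM moved to -0.01. 

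Signs changed as follows. With library totals left unscaled, which moves the median of all genes to -0.58 in primed_4d and -0.44 in rosette_LIM against LIF_2i, and -0.13 in primed_4d against rosette_LIM, Ier2 was at -0.52 in primed_4d against LIF_2i (called lower) and -0.04 against rosette_LIM, Fos at -0.13 and Atf3 at -0.14 in rosette_LIM against LIF_2i, and Ier3 at -0.14 in primed_4d against rosette_LIM. Without wells over 5 times the median of their library, Ier2 was at -0.01 in primed_4d against LIF_2i, Ier3 at -0.41 in primed_4d against rosette_LIM and Egr1 at 0.14 in IB10 against R1. With equal weight per well, Ier2 was at -0.14 in primed_4d and Egr1 at -0.02 in rosette_LIM against LIF_2i. With 1 library left out, Ier2 ranged from -0.05 to 0.15 in primed_4d against LIF_2i; Fos from -0.72 to 1.47, Jun from -1.45 to 0.16, Ier2 from -0.15 to 0.06 and Atf3 from -0.52 to 0.81 in rosette_LIM against LIF_2i; Ier3 from -0.46 to 0.66 in primed_4d against rosette_LIM; and Fos from -0.12 to 0.98 and Ier3 from -0.80 to 0.07 in IB10 against R1.

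The mean share of wells with an Egr1 UMI depends on depth. Thinned to 3000, thinned to 10000, not thinned, and for 2 or more UMIs at 6000, it was 5.75%, 13.67%, 23.94% and 3.59% in primed_4d. It was 0.27%, 0.58% and 2.39% under the first 3 of these in rosette_LIM, and 0.32% at 10000 and 1.33% not thinned in LIF_2i. For Ier2 the 4 shares were 37.61%, 68.77%, 68.35% and 17.86% in primed_4d, 36.62%, 72.44%, 83.78% and 19.80% in rosette_LIM, and 33.34%, 71.90%, 89.36% and 22.24% in LIF_2i. The Egr1 means in primed_4d hide a difference between the lines that changed with depth. At 3000 the Egr1 share was 3.955% in IB10 primed_4d and 7.547% in R1 primed_4d. At 6000 it was 11.243% in IB10 and 9.615% in R1, and at 10000 it was 19.178% in IB10 and 8.163% in R1. The near match of the lines at 6000 thus did not hold at 3000 or 10000, and the differences were not tested. Few molecules of Fos, Ier3, Atf3 and, outside primed_4d, Egr1 limit what could be seen.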
